A study of Homo sapiens with 12 samples.

Results

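The chaperones of the cytosol and of mitochondria were followed through knockdown of the kinase MARK2 in 3 human non-small cell lung cancer lines. The list holds 39 genes: heat shock factors, HSP70, HSP40, HSP90 and small heat shock proteins, the mitochondrial pair HSPD1 and HSPE1, cochaperones, and subunits of the CCT chaperonin. A gene was included by its symbol in the platform annotation of the array, and the brightest of its probe sets on average stood for it. Of the 39 genes, 37 had such a probe set and all 37 entered the test, among 16205 genes tested in all; HSF2 and AHSA1 were not analysed here. The lowest signal of any of the 37 on any array was 6.32 (log2), above the level of 5 asked of 2 arrays. The lines were H1650, H1693 and H1993, chosen by the submitters for high MARK2. Each was transduced with a lentivirus, either the pLKO vector with a short hairpin RNA against MARK2 (knockdown, KD in the labels) or the empty pLKO vector (control). Every one of the 6 groups had 2 arrays from biological replicates, 12 arrays in all. All cells had thus been transduced, and the control carried a vector with no hairpin; how many hairpins were used, and their sequence, is not stated in the labels. Values are log2 signals of Affymetrix arrays, so a change of -1 is a halving of signal and 1 a doubling. The arrays measure bulk RNA, in which fewer cells with a transcript and less of it per cell cannot be told apart.

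Chaperones bind unfolded or partly folded proteins and let them fold, assemble or be handed on for breakdown. HSP70 proteins work in cycles of ATP binding: HSP40 (DNAJ) proteins bring the client and start ATP breakdown, and exchange factors such as the BAG proteins, HSPBP1 and the HSP110 group (HSPA4, HSPA4L, HSPH1) reset the cycle. STIP1 passes clients from HSP70 to HSP90, which holds kinases and receptors with the help of PTGES3, FKBP4 and AHSA1. The CCT ring folds actin and tubulin, the subunit of the microtubules that MARK kinases act on through microtubule-associated proteins. Under heat or misfolding the transcription factor HSF1 binds heat shock elements and raises many of these genes, and tumour cells often keep them high.

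The promoters of several members carry the heat shock element, and 6 are shown because HSF1 acts on its targets through this sequence. The element was searched as 3 alternating units, GAANNTTCNNGAA or TTCNNGAANNTTC. Each is the reverse complement of the other, so both strands were covered, and overlapping matches were kept. The windows were RefSeq promoters of GRCh38.p14, 250 bases before to 50 after each annotated start. Of the 39 members 35 had an entry, and HSF1, HSPA14, FKBP4 and ST13 had none. The element was found for 7 of these 35 genes (20%), against 0.608% of all 27305 genes in the table. The shorter form of 2 units, GAANNTTC or TTCNNGAA, which the longer one contains, was found for 51.4% of the members and 16.2% of all genes. Stretches of 60 bases that hold the 3-unit element are printed 5′ to 3′ on the strand of the gene, with the element in capitals.
CHORDC1, chr11:90223068-90223127, minus strand: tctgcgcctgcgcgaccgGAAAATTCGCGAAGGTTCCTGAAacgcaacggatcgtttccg
HSPD1, chr2:197500031-197500090, minus strand: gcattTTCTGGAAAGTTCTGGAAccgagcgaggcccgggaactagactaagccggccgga
HSP90AA1, chr14:102087096-102087155, minus strand: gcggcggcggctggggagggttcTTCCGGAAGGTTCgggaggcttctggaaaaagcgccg
HSP90AB1, chr6:44247808-44247867, plus strand: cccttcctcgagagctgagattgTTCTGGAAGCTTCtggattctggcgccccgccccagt
HSPA8, chr11:123062155-123062214, minus strand: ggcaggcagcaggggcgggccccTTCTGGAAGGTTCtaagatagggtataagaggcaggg
DNAJB6, chr7:157336850-157336909, plus strand: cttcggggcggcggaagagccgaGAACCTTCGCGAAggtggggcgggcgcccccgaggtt
In CHORDC1 and HSPD1 the units ran on without a gap into longer arrays. HSP90AB1 and HSPA8 each had a second element in the window, and the element of DNAJA1 lay after its annotated start. In H1693 6 of these 7 genes fell after knockdown and the exception, DNAJB6, changed by -0.03 (SE 0.07, adjusted p = 0.785). Of the 26 tested members whose window lacked the element 14 fell there, and of all genes 15.9%. These counts depend on the threshold and the setting. As a mean over all probe sets the falls of DNAJA1 and HSPD1 did not pass (limma adjusted p = 0.142 and 0.0826). STIP1, which lacked the element, then passed (-0.47, adjusted p = 0.00523). The calls of HSPA8, DNAJA1, HSP90AB1 and CHORDC1 did not hold with every single array left out. That was also so for some members without the element. The median change of the 7 was -0.28, next to -0.27 for those 26. In H1993 the medians were 0.01 and -0.08, and in H1650 -0.28 and -0.01. Matches are a description of the sequence and do not show binding.

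MARK2 itself was read at 9.17 and 9.06 on the control and 6.76 and 6.77 on the knockdown arrays of H1993, a change of -2.35 (limma adjusted p = 6.47e-06). In H1693 it went from 7.76 and 7.97 to 6.62 and 6.57, a change of -1.27 (adjusted p = 0.000258). In H1650 it was at 6.07 and 5.80 on the control and 5.92 and 5.37 on the knockdown arrays, which overlapped (change -0.29, adjusted p = 0.156). The H1650 arrays also stood apart in RNA integrity, and their control and knockdown groups differed in it. For the GAPDH control probe sets, the 3′ signal less the 5′ signal, which grows as RNA breaks down, ran from 2.28 to 3.07 (log2) on the H1650 control and from 6.77 to 6.87 on the H1650 knockdown arrays, and lay between -0.12 and 0.02 on the 8 arrays of the other lines. In H1650, RNA quality and knockdown therefore cannot be told apart. The epithelial markers EPCAM and KRT18 were bright in all groups (12.61 to 13.35 and 13.91 to 15.01), whereas KRT7 was at 6.70 and 6.38 in the control and knockdown of H1693 and KRT8 at 11.66 and 7.19 in those of H1650. Of 3 leukocyte markers, the defining PTPRC stayed under 5 on all 12 arrays, CD3E was at 5.87 to 6.18 over the groups, and CD68 at 7.40 to 11.50. CD68 was at 10.00 and 10.37 in the control and knockdown of H1650, 7.70 and 7.40 in those of H1693 and 11.50 in both of H1993. Of 4 fibroblast markers, DCN stayed under 5 on all 12 arrays and COL1A2 was at 5.39 to 5.63. LUM was at 10.92 in the control and 11.86 in the knockdown group of H1693, 3.74 and 5.74 in H1993 and 3.33 and 3.98 in H1650. COL1A1 was at 9.85 and 10.52 in H1693, 8.11 and 8.70 in H1993 and 8.76 and 8.92 in H1650. The group means of LUM and COL1A1 were thus higher in the knockdown of each line, although those of LUM in H1650 were under 5. COL1A2 went from 5.63 to 5.51 in H1993 and DCN from 4.39 to 4.35 in H1693, so these did not share the pattern. The part of these markers in the results was not tested.

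In H1693 most of the 37 chaperone genes on the member list were lower after knockdown. This did not hold for the 59 other chaperones and cofactors of the companion list below, of which 22% were lower. Of the 37 members 22 fell and 2 rose (limma, two-sided, Benjamini-Hochberg adjusted p under 0.05 over all genes tested), and their median change was -0.28, against -0.02 over all genes. The share that fell, 59.5%, compares with 15.9% of all genes, and the share that rose, 5.41%, with 17.1%; in either direction it was 64.9% against 33%. In 31 of the 37 both knockdown arrays lay below both control arrays, which held for 36.1% of all genes, and in 3 both lay above, against 32.9%. In H1993 6 members fell and 3 rose, a median of -0.09 against 0.02 over all genes; the shares of 16.2% and 8.11% compare with 14.5% of all genes lower and 18.9% higher, and 24.3% changed in either direction against 33.4%. The knockdown arrays of H1993 lay below the control arrays for 19 members and above for 8 (29% and 34.7% of all genes). H1650 had 14 lower and 9 higher, 37.8% and 24.3% of the members against 16.7% and 36.7% of all genes, with a median of -0.01 against 0.15 and 62.2% changed in either direction against 53.4%. Both H1650 knockdown arrays lay below for 16 members and above for 15 (22.4% and 51.1% of all genes). Lower in both H1693 and H1993 were HSPA4L, HSPA14, FKBP4 and PTGES3, 4 members where 6.94% of all genes did so, and higher in both was DNAJB4, where 8.38% of all genes did so. On the brightest probe set, the members that passed in no line numbered 4: the mitochondrial HSP70 HSPA9, the HSP40 DNAJA2, the HSP70 cofactor ST13 and CCT4. Other probe sets of these genes did pass, except for ST13. For DNAJA2 another probe set rose by 0.88 in H1650 and by 0.35 in H1993. For HSPA9 another changed by -2.82 in H1650, and for CCT4 another changed by -0.31 in H1693. The count in H1693 moved with single arrays. Without control replicate 1 it was 13 lower, and without knockdown replicate 1 or 2 it was 14 in each case. Of the 22 genes 12 passed with any one of the 12 arrays left out: HSPA4L, HSPA14, HSPH1, DNAJB1, DNAJC2, HSP90AA1, HSPD1, HSPE1, BAG3, FKBP4, TCP1 and CCT2. In H1993 the 6 became 3 without control replicate 1 and 2 without knockdown replicate 2. It was 11 with the mean of all probe sets of a gene and 12 with a trended and robust prior. Calls over all genes were not counted in those settings, nor in the fits of H1693 with single arrays left out. How far these counts stand from their share there is not known. In H1993 the falls of HSPA14 and BAG1 and the rises of DNAJB4 and DNAJB6 passed with any one array left out.

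**Figure D1:**
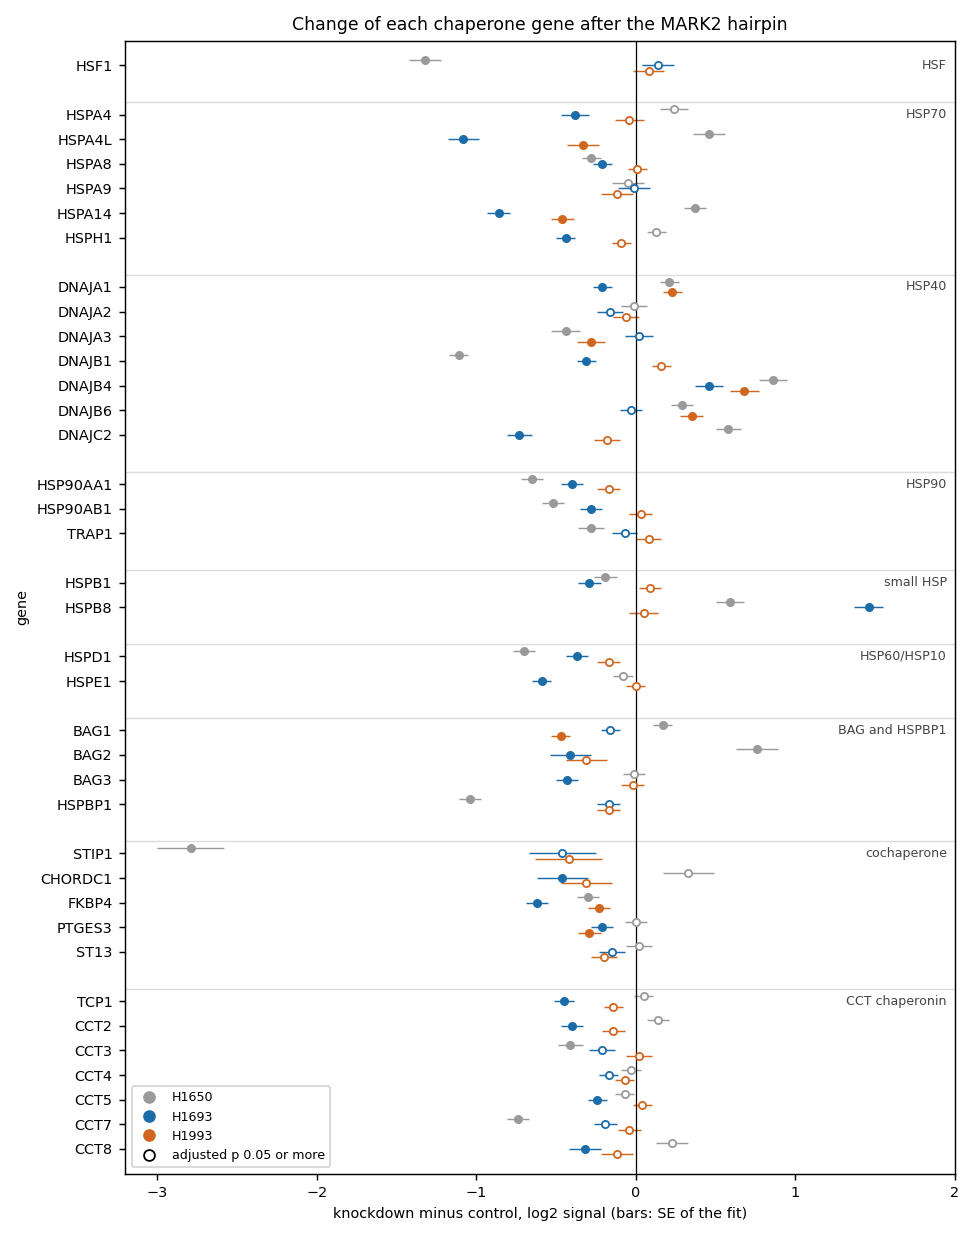
Each point is the knockdown minus control change (log2 signal, x axis) of one of the 37 genes in one line, with the SE of the fit as a bar and open symbols for genes that did not pass the threshold. In H1693 22 of the points lie to the left of 0 as filled symbols and 2 to the right, whereas in H1993 the filled symbols are 6 and 3, and in H1650 the points spread from -2.79 to 0.86.

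HSF1, the master regulator of the heat shock response, did not pass the threshold in H1693 or H1993. Its signal in H1693 was 10.35 and 10.36 on the control and 10.51 and 10.47 on the knockdown arrays. H1993 gave 10.47 and 10.52 on the control and 10.58 and 10.58 on the knockdown arrays. The changes were 0.14 (SE 0.10, adjusted p = 0.326) and 0.08 (SE 0.10, adjusted p = 0.585), and in both lines the knockdown arrays lay slightly above the control arrays. The H1650 arrays read 10.36 and 10.03 on the control and 8.83 and 8.92 on the knockdown arrays, a change of -1.32 (SE 0.10, adjusted p = 3.91e-06) on the single probe set of this gene, beside the 3′ minus 5′ difference of that line. The change differed between the lines by the F test (adjusted p = 3.68e-05).

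Among the HSP70 class, 5 of 6 members fell in H1693 (median -0.41) and 2 in H1993 (median -0.10), 83.3% and 33.3% against 15.9% and 14.5% of all genes. HSPA4L, an HSP110-type exchange factor, had the largest fall of all members in H1693. There it read 10.17 and 10.06 on the control and 9.0 and 9.07 on the knockdown arrays, so that 47.3% of the control signal was left (change -1.08, SE 0.10, adjusted p = 4.56e-05). In H1993 it read 9.55 and 9.53 on the control and 9.23 and 9.19 on the knockdown arrays, a smaller change of -0.33 (SE 0.10, adjusted p = 0.0318). The pairs of arrays do not overlap in either line, and the fall in H1993 did not pass when some arrays were left out. In H1650 HSPA4L was at 7.43 and 7.69 on the control and 8.13 and 7.90 on the knockdown arrays and rose by 0.46 (SE 0.10, adjusted p = 0.0037). Its 3 probe sets changed by -1.08 to -0.89 in H1693 and -0.41 to -0.33 in H1993. In H1650 they were at 0.10 to 0.46, only 1 of the 3 passed, and their mean of 0.23 did not (adjusted p = 0.0698). HSPA14 binds ribosomes together with the HSP40 protein DNAJC2, and the complex receives nascent chains. HSPA14 in H1693 read 8.99 and 8.86 on the control and 8.13 and 8.0 on the knockdown arrays, a change of -0.86 (SE 0.07, adjusted p = 2.62e-05). In H1993 its values were 10.41 and 10.47 on the control and 9.97 and 10.0 on the knockdown arrays (change -0.46, SE 0.07, adjusted p = 0.00102). In H1650 they were 10.41 and 10.45 on the control and 10.77 and 10.83 on the knockdown arrays (change 0.37, SE 0.07, adjusted p = 0.00182). The knockdown arrays were thus below the control arrays in H1693 and H1993 and above them in H1650 on this probe set, and HSPA14 had the second smallest F test p among the members (adjusted p = 3.62e-05). Its 4 probe sets agreed in sign in H1693 (-0.95 to -0.23) but not in H1993 (-0.64 to 0.41) or H1650 (-0.87 to 0.46), and as their mean the H1650 change was 0.05 (adjusted p = 0.544). The HSP110 protein HSPH1 fell in H1693 by 0.44 (SE 0.06, adjusted p = 0.00066), with all of its 8 probe sets between -0.82 and -0.44. HSPA4 fell by 0.38 (SE 0.09, adjusted p = 0.0112), and HSPA8, the constitutive HSP70 of the cytosol, by 0.21 (SE 0.06, adjusted p = 0.0213). In H1993 HSPA8 was at 0.01 (SE 0.06, adjusted p = 0.948), but 4 of its 9 probe sets fell there, the lowest at -1.11. HSPA9 was at -0.01 (SE 0.10, adjusted p = 0.945) in H1693 and -0.12 (SE 0.10, adjusted p = 0.433) in H1993.

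The HSP40 class was mixed, with 3 falls and 1 rise among its 7 members in H1693, and 1 fall and 3 rises in H1993. Over all genes 15.9% fell and 17.1% rose in H1693, and 14.5% fell and 18.9% rose in H1993, against 42.9% and 14.3% and then 14.3% and 42.9% of this class. DNAJC2, the ribosomal partner of HSPA14, read 11.76 and 11.65 on the control and 10.89 and 11.06 on the knockdown arrays in H1693 and fell by 0.73 (SE 0.08, adjusted p = 0.000145). Its H1993 values were 13.32 and 13.23 on the control and 13.17 and 13.02 on the knockdown arrays. This difference of -0.18 (SE 0.08, adjusted p = 0.13) did not pass. In H1650 they were 10.85 and 10.89 on the control and 11.43 and 11.48 on the knockdown arrays, a rise of 0.58 (SE 0.08, adjusted p = 0.000253). DNAJC2 has 1 probe set, and its order over the lines matched that of HSPA14, lowest change in H1693 and highest in H1650. That order was not particular to this pair. HSPA4L, HSPH1, BAG2, TCP1 and CCT2 were among the other members that had it, and it rests in part on H1650. DNAJB4, an HSP40 that targets misfolded clients, was the member that rose in all 3 lines; 5.42% of all genes did so. In H1693 DNAJB4 read 10.88 and 10.87 on the control and 11.27 and 11.40 on the knockdown arrays (change 0.46, SE 0.09, adjusted p = 0.00291). H1993 had 8.93 and 9.05 on the control and 9.75 and 9.59 on the knockdown arrays (change 0.68, SE 0.09, adjusted p = 0.000286). H1650 had 9.46 and 9.60 on the control and 10.44 and 10.33 on the knockdown arrays (change 0.86, SE 0.09, adjusted p = 3.25e-05). In each line the knockdown arrays lay above both control arrays, and the F test did not pass (adjusted p = 0.0546). Its 3 probe sets were above 0 in H1693 (0.20 to 0.46) and H1993 (0.37 to 0.68), and in H1650 they ran from -0.25 to 0.86. DNAJB1, the stress-inducible HSP40 and a classic HSF1 target, read 12.21 and 12.18 on the control and 11.88 and 11.88 on the knockdown arrays in H1693, a change of -0.31 (SE 0.06, adjusted p = 0.00269). In H1993 DNAJB1 was at 12.71 and 12.69 on the control and 12.87 and 12.84 on the knockdown arrays (change 0.16, SE 0.06, adjusted p = 0.0711, not past the threshold). In H1650 it was at 12.89 and 12.90 on the control and 11.83 and 11.74 on the knockdown arrays, a change of -1.11 (SE 0.06, adjusted p = 6.65e-07), but its 3 probe sets there changed by -3.24 to 0.44. In H1693 and H1993 the probe sets of DNAJB1 agreed, at -0.31 to -0.28 and 0.13 to 0.16. DNAJA1, which supports HSP70 in the cytosol, moved in opposite directions in the better preserved lines. It read 13.14 and 13.14 on the control and 12.91 and 12.96 on the knockdown arrays in H1693, a change of -0.21 (SE 0.06, adjusted p = 0.019), and 13.22 and 13.21 on the control and 13.45 and 13.43 on the knockdown arrays in H1993, a rise of 0.23 (SE 0.06, adjusted p = 0.012). In H1650 DNAJA1 was at 12.96 and 12.97 on the control and 13.19 and 13.16 on the knockdown arrays and rose by 0.21 (SE 0.06, adjusted p = 0.0108). As a mean over its 5 probe sets the changes were -0.17 (adjusted p = 0.142) and 0.21 (adjusted p = 0.0649) in H1693 and H1993, and neither passed. DNAJB6, which keeps aggregation-prone proteins soluble, rose in H1993 from 11.49 and 11.56 to 11.88 and 11.85 (change 0.35, SE 0.07, adjusted p = 0.00307). In H1693 the DNAJB6 arrays overlapped, at 11.16 and 11.21 on the control and 11.22 and 11.09 on the knockdown arrays, and in H1650 they read 12.29 and 12.33 on the control and 12.62 and 12.58 on the knockdown arrays (change 0.29, SE 0.07, adjusted p = 0.0045). In H1650 its 5 probe sets ran from -1.93 to 0.29. Their mean in H1993 was 0.18 (adjusted p = 0.0527). The mitochondrial HSP40 DNAJA3 fell in H1993 by 0.28 (SE 0.09, adjusted p = 0.0372) and was at 0.02 in H1693. The fall in H1993 passed in 5 of the 12 fits that left out one array (change -0.38 to -0.18, largest adjusted p = 0.241), and not with the H1993 arrays alone (adjusted p = 0.0856).

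**Figure D2:**
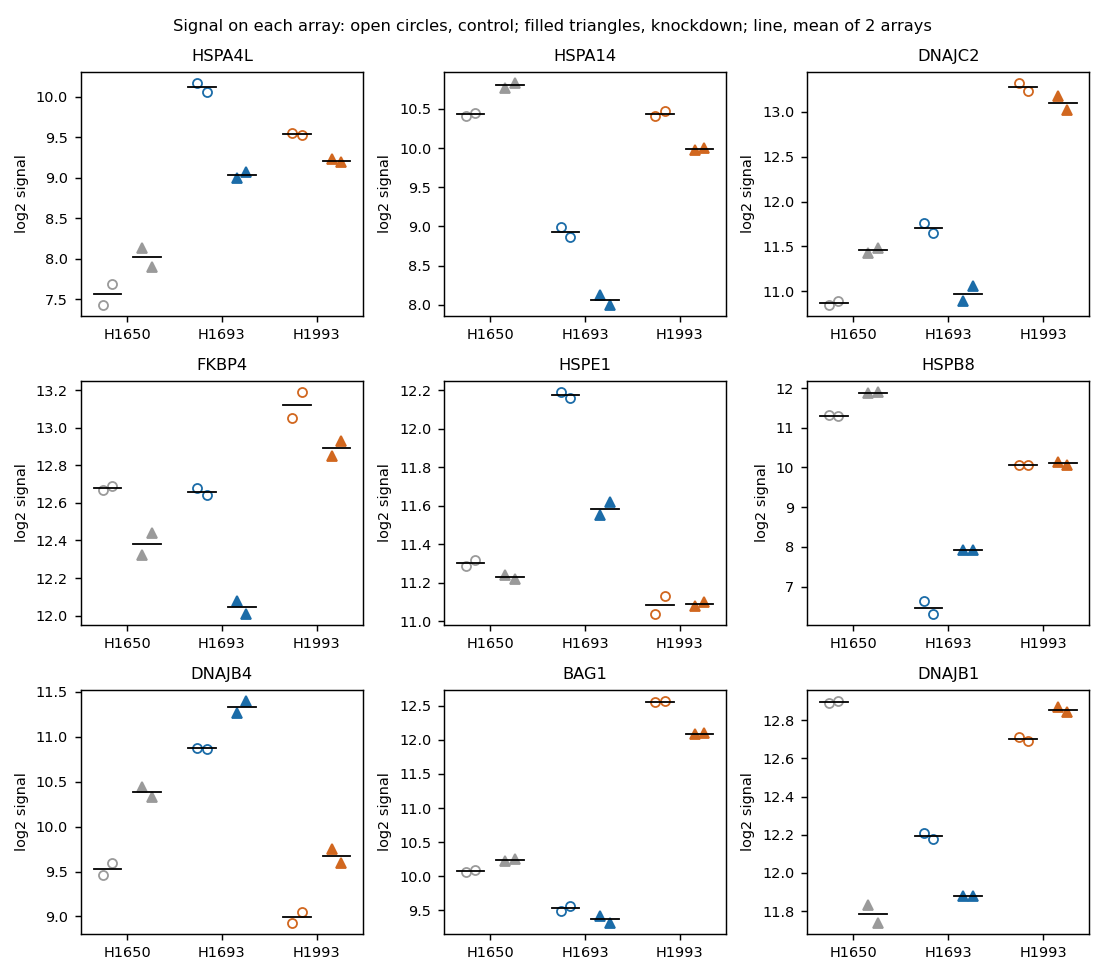
Log2 signal (y axis) of 9 genes on each of the 12 arrays, by line, with open circles for control, filled triangles for knockdown and a line at the mean of each pair. HSPA4L, HSPA14 and DNAJC2 are lower on the knockdown arrays of H1693 and higher on those of H1650, DNAJB4 is higher in every line, and HSPB8 rises in H1693 from the lowest level of the 3 lines.

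Both cytosolic HSP90 genes fell in H1693, as 15.9% of all genes did. HSP90AA1, the inducible form, fell by 0.40 (SE 0.07, adjusted p = 0.00129), and HSP90AB1, the constitutive form, by 0.28 (SE 0.07, adjusted p = 0.00863), whereas the mitochondrial TRAP1 was at -0.07 (SE 0.08, adjusted p = 0.557). In H1993 no HSP90 gene passed in limma (1 was lower at an unadjusted p under 0.05), with changes of -0.17, 0.03 and 0.08. Of all genes 33.4% passed there in either direction. In H1650 all 3 fell, by 0.65, 0.52 and 0.28, as 16.7% of all genes did, although the other probe set of HSP90AA1 was at 0.25. With the H1650 arrays alone TRAP1 did not pass (limma adjusted p = 0.0872). HSP90AA1 and HSP90AB1 were among the brightest members, between 13.06 and 14.49 on single arrays. The highest signal of any probe set was 15.10 to 15.22 per array, and differences near that top are compressed.

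The mitochondrial chaperonin is built of HSPD1 (HSP60) and its lid HSPE1 (HSP10), whose genes lie next to each other and are transcribed away from a shared stretch. Both fell in H1693, as 15.9% of all genes did. HSPE1 read 12.19 and 12.16 on the control and 11.55 and 11.62 on the knockdown arrays, a change of -0.59 (SE 0.06, adjusted p = 9.26e-05). In H1993 its arrays overlapped, at 11.04 and 11.13 on the control and 11.08 and 11.10 on the knockdown arrays (change 0.00, SE 0.06, adjusted p = 0.972). H1650 gave 11.29 and 11.32 on the control and 11.24 and 11.22 on the knockdown arrays (change -0.08, SE 0.06, adjusted p = 0.338). HSPE1 was thus higher in the H1693 control than in any other group, and after knockdown it remained above the H1993 and H1650 arrays. HSPD1 fell in H1693 by 0.37 (SE 0.07, adjusted p = 0.00338) and was at -0.17 (SE 0.07, adjusted p = 0.117) in H1993. Of its 7 probe sets the 5 bright ones changed by -0.54 to -0.37 in H1693. The 2 dim ones, with mean signals of 4.40 and 4.39, were at 0.46 and 0.50 without passing. With them in the mean over all probe sets HSPD1 was at -0.18 in H1693 and did not pass (adjusted p = 0.0826).

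The small heat shock proteins bind unfolding clients without ATP. HSPB8, which works with BAG3 in the removal of aggregates by autophagy, had the largest rise of all members. In H1693 HSPB8 read 6.63 and 6.32 on the control and 7.93 and 7.93 on the knockdown arrays, so that the knockdown signal was 275% of the control (change 1.46, SE 0.09, adjusted p = 4.99e-06). Its H1993 arrays overlapped, at 10.07 and 10.05 on the control and 10.14 and 10.07 on the knockdown arrays (change 0.05, SE 0.09, adjusted p = 0.767). In H1650 the values were 11.31 and 11.29 on the control and 11.87 and 11.90 on the knockdown arrays, a rise of 0.59 (SE 0.09, adjusted p = 0.000416) that its other probe set, at -2.46, did not share. In H1693 the other probe set rose by 1.22. HSPB1 (HSP27) went the other way in H1693, with a change of -0.29 (SE 0.07, adjusted p = 0.00916), and was at 0.09 (SE 0.07, adjusted p = 0.352) in H1993. BAG3, the partner of HSPB8, fell in H1693 by 0.43 (SE 0.07, adjusted p = 0.00113) and was at -0.02 (SE 0.07, adjusted p = 0.842) in H1993 and -0.01 (SE 0.07, adjusted p = 0.916) in H1650.

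Of the other HSP70 exchange factors, BAG1, which also binds BCL2, fell in H1993, where it was brightest. It read 12.55 and 12.57 on the control and 12.08 and 12.10 on the knockdown arrays, a change of -0.47 (SE 0.06, adjusted p = 0.000364), with its 4 probe sets at -0.56 to -0.47. In H1693 BAG1 read 9.49 and 9.57 on the control and 9.42 and 9.32 on the knockdown arrays (change -0.16, SE 0.06, adjusted p = 0.0807), and the knockdown arrays lay below the control arrays without passing, while another of its probe sets rose there by 0.31. H1650 gave 10.06 and 10.09 on the control and 10.23 and 10.26 on the knockdown arrays (change 0.17, SE 0.06, adjusted p = 0.0472). BAG2, an inhibitor of the ubiquitin ligase STUB1, read 11.99 and 11.90 on the control and 11.48 and 11.59 on the knockdown arrays in H1693 and fell by 0.41 (SE 0.13, adjusted p = 0.036). In H1993 BAG2 was at 10.83 and 10.74 on the control and 10.65 and 10.29 on the knockdown arrays (change -0.31, SE 0.13, adjusted p = 0.0997), and in H1650 at 9.99 and 10.18 on the control and 10.99 and 10.71 on the knockdown arrays, a rise of 0.76 (SE 0.13, adjusted p = 0.000804) that its other probe set shared at 0.87. HSPBP1 read 11.99 and 11.93 on the control and 10.90 and 10.93 on the knockdown arrays in H1650, a change of -1.04 (SE 0.07, adjusted p = 2.09e-06). In H1693 and H1993 HSPBP1 read 10.26 and 10.28 on the control and 10.18 and 10.02 on the knockdown arrays and 10.34 and 10.37 on the control and 10.17 and 10.20 on the knockdown arrays, and neither change passed (-0.17 and -0.17, adjusted p = 0.0941 and 0.0864). As means over their probe sets, BAG2 and HSPBP1 did pass in H1993 (-0.36 and -0.29, limma adjusted p = 0.0282 and 0.0288).

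The 5 tested cochaperones of the member list, which include the HSP70 cofactor ST13, were below 0 in both H1693 and H1993. This did not hold for the 11 tested cochaperones of the companion list. Of these 11, 6 were below 0 in H1693 and 5 in H1993, with medians of -0.02 and 0.13. FKBP4, an immunophilin that links HSP90 to steroid receptors, was the member that fell in all 3 lines, which 2.23% of all genes did. FKBP4 in H1693 read 12.68 and 12.64 on the control and 12.08 and 12.01 on the knockdown arrays (change -0.62, SE 0.07, adjusted p = 0.000194). H1993 gave 13.05 and 13.19 on the control and 12.85 and 12.93 on the knockdown arrays (change -0.23, SE 0.07, adjusted p = 0.0367). H1650 gave 12.67 and 12.69 on the control and 12.32 and 12.44 on the knockdown arrays (change -0.30, SE 0.07, adjusted p = 0.00692). The knockdown arrays lay below both control arrays in each line. In H1693 its 3 probe sets changed by -0.91 to -0.62, but the dimmest was at 0.32 in H1993 and 0.73 in H1650. As a mean over the probe sets FKBP4 was at -0.07 in H1993 (adjusted p = 0.457) and 0.01 in H1650 (adjusted p = 0.9). In H1993 its fall also did not pass with the arrays of that line alone (limma adjusted p = 0.1). Nor did it pass after quantile normalisation (adjusted p = 0.0628), or with every single array left out. PTGES3 (p23), which stabilises the closed form of HSP90, read 13.63 and 13.56 on the control and 13.36 and 13.26 on the knockdown arrays in H1993, a change of -0.29 (SE 0.07, adjusted p = 0.00805). In H1693 PTGES3 was at 13.68 and 13.64 on the control and 13.45 and 13.47 on the knockdown arrays (change -0.21, SE 0.07, adjusted p = 0.0389). The H1650 arrays overlapped, at 13.54 and 13.64 on the control and 13.60 and 13.59 on the knockdown arrays (change 0.00, SE 0.07, adjusted p = 0.975). The 4 PTGES3 probe sets were at -0.44 to -0.29 in H1993 and -0.45 to -0.21 in H1693, and in H1650 they ran from -1.47 to 0.00. STIP1 read 12.01 and 11.99 on the control and 11.55 and 11.53 on the knockdown arrays in H1693 and 11.26 and 11.32 on the control and 10.84 and 10.89 on the knockdown arrays in H1993, with no overlap in either line. Its changes of -0.46 (SE 0.21, adjusted p = 0.132) and -0.42 (SE 0.21, adjusted p = 0.167) did not pass in the fit of all arrays. As a mean over its probe sets STIP1 did pass, at -0.47 in H1693 (adjusted p = 0.00523) and -0.6 in H1993 (adjusted p = 0.00122). It also passed with the arrays of each line alone (adjusted p = 0.00313 and 0.011). In H1650 STIP1 read 11.02 and 10.79 on the control and 7.69 and 8.54 on the knockdown arrays (change -2.79, SE 0.21, adjusted p = 4.77e-06), and the 2 knockdown arrays differed by more than in any other group. In a fit without the 4 H1650 arrays, an alternative added after the data were seen, STIP1 fell by 0.46 in H1693 (SE 0.06, adjusted p = 0.000813) and by 0.42 in H1993 (SE 0.06, adjusted p = 0.00112). That fit called 25 members lower in H1693 and 8 in H1993. Its calls over all genes were not counted. CHORDC1 fell in H1693 by 0.46 (SE 0.16, adjusted p = 0.0456) and ST13 was at -0.15 (SE 0.08, adjusted p = 0.186).

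All 7 CCT subunits on the member list were below 0 in H1693, and 4 of them passed, 57.1% against 15.9% of all genes. CCT6A and CCT6B were on a companion list described below. In H1693 they were at -0.20 (SE 0.08, adjusted p = 0.0755) and 0.80 (SE 0.10, adjusted p = 0.000207). TCP1 fell by 0.45 (SE 0.06, adjusted p = 0.000261), CCT2 by 0.40 (SE 0.07, adjusted p = 0.00129), CCT8 by 0.32 (SE 0.10, adjusted p = 0.0336) and CCT5 by 0.24 (SE 0.06, adjusted p = 0.0124). TCP1 read 13.46 and 13.45 on the control and 12.98 and 13.02 on the knockdown arrays, and CCT2 12.91 and 12.92 on the control and 12.56 and 12.46 on the knockdown arrays. CCT3, CCT4 and CCT7 were at -0.21, -0.17 and -0.19 with adjusted p = 0.0903, 0.0722 and 0.0693. The changes of the 7 subunits ranged over -0.45 to -0.17, with both knockdown arrays below both control arrays for each of them, as for 36.1% of all genes. In H1993 none of the 7 passed in limma, and their range was -0.14 to 0.04. Of the 7, 1 was lower there at an unadjusted p under 0.05. CCT6A was at 0.18 (SE 0.08, adjusted p = 0.0947) in H1993, and CCT6B rose by 0.49 (SE 0.10, adjusted p = 0.00363). In H1650 CCT7 and CCT3 fell by 0.74 and 0.41, while the probe sets of CCT2 there were at -3.45 and 0.14.

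The difference between H1993 and H1693 was tested directly, since their arrays had like RNA integrity. The change was higher in H1993 for 14 of the 37 members and lower for 2, 37.8% and 5.41%, against 12.6% and 9.48% of all genes (43.2% against 22.1% in either direction). The median difference was 0.22, next to 0.05 over all genes. HSPA4L had the largest difference upward, 0.75 (SE 0.14, adjusted p = 0.00504), followed by HSPE1 at 0.59 (SE 0.09, adjusted p = 0.00139) and DNAJC2 at 0.54 (SE 0.12, adjusted p = 0.00915). HSPB8 had the largest downward, -1.41 (SE 0.13, adjusted p = 9.14e-05), and BAG1 was at -0.31 (SE 0.09, adjusted p = 0.0361). DNAJB1, DNAJA1, BAG3 and HSPA14 differed by 0.47, 0.43, 0.41 and 0.40. The CCT subunits TCP1 and CCT5 differed by 0.31 and 0.28. Calls over all genes were not counted in fits with single arrays left out, so their share there is not known. The count of 14 moved in those fits. It was 6 without H1693 control replicate 1, 7 without H1693 control replicate 2, 8 and 6 without H1693 knockdown replicates 1 and 2, 6 without H1993 control replicate 1, and 9 without either H1993 knockdown array. HSPA4L, DNAJA1, DNAJB1, DNAJC2, HSPE1 and HSPB8 passed with any one array left out. Of the 2 members lower in H1993, 1 was left without H1693 control replicate 1 or 2, H1693 knockdown replicate 1, or any one H1993 array. The 2 contrasts share no arrays, but MARK2 signal also changed by different amounts in these lines, as above, and its part in the difference was not tested.

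**Figure D3:**
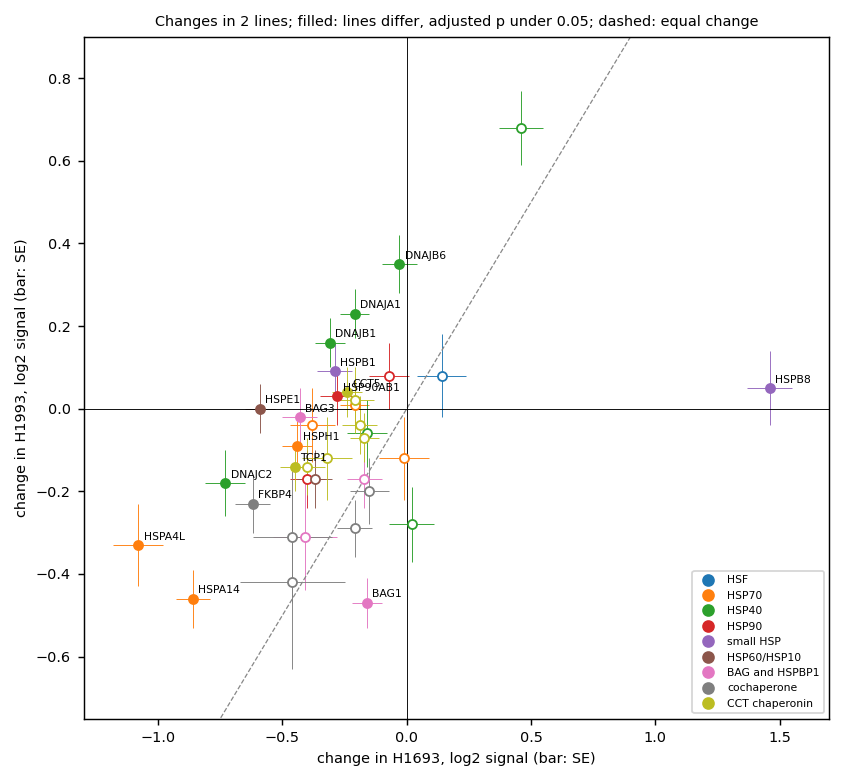
Change in H1993 (y axis) against change in H1693 (x axis), both in log2 signal with SE bars, for the 37 genes coloured by class; filled symbols passed the test of the difference between the lines and the dashed line marks equal change. The 14 filled symbols above the line include HSPA4L, HSPE1 and DNAJC2, and the 2 below it are HSPB8 and BAG1.

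The 3 lines together differed for 30 of the 37 members by the F test (81.1%, against 54.9% of all genes). DNAJB1 had the smallest p (adjusted p = 1.06e-05), followed by HSPA14, HSF1 and DNAJC2 (adjusted p = 3.62e-05, 3.68e-05 and 5.64e-05). H1650 enters this test, and there the probe sets of one gene gave different answers. Over the 29 members with 2 or more probe sets, 116 in all, the median span between the lowest and the highest change of a gene was 1.47 in H1650, 0.24 in H1693 and 0.20 in H1993. In H1650 the span passed 1 for 19 of the 29 genes and in 9 genes one probe set fell while another rose; H1693 had 1 gene over 1 and no gene that went both ways, and H1993 had 2 and 1. HSPA8 was the widest: its 9 probe sets in H1650 changed by -5.75 to 0.19, and in H1693 by -0.54 to -0.21. HSPD1 ran from -3.68 to 0.20 in H1650 and HSPA4 from -3.45 to 0.31. Of all 124 probe sets of the members, 62 fell and 6 rose in H1693, 50% and 4.84% against 11.3% and 13.2% of all 44988 probe sets with one gene symbol. In H1993 25 fell and 9 rose (20.2% and 7.26%, against 11.4% and 12.8%), and in H1650 49 fell and 25 rose (39.5% and 20.2%, against 18.3% and 26.9%). Averaging all probe sets of a gene was a setting in which calls over all genes were not counted. It gave 22 falls and 2 rises among the members for H1693, 11 falls and 1 rise for H1993, and 21 falls and 6 rises for H1650. DNAJB6, HSPB8 and PTGES3 then fell in H1650, at -0.44, -0.94 and -0.56. With the tested genes quantile normalised, the median of all genes in H1650 moved from 0.15 to 0.04, with 4737 genes higher and 3468 lower in place of 5954 and 2702, and that of the members from -0.01 to -0.08.

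**Figure D4:**
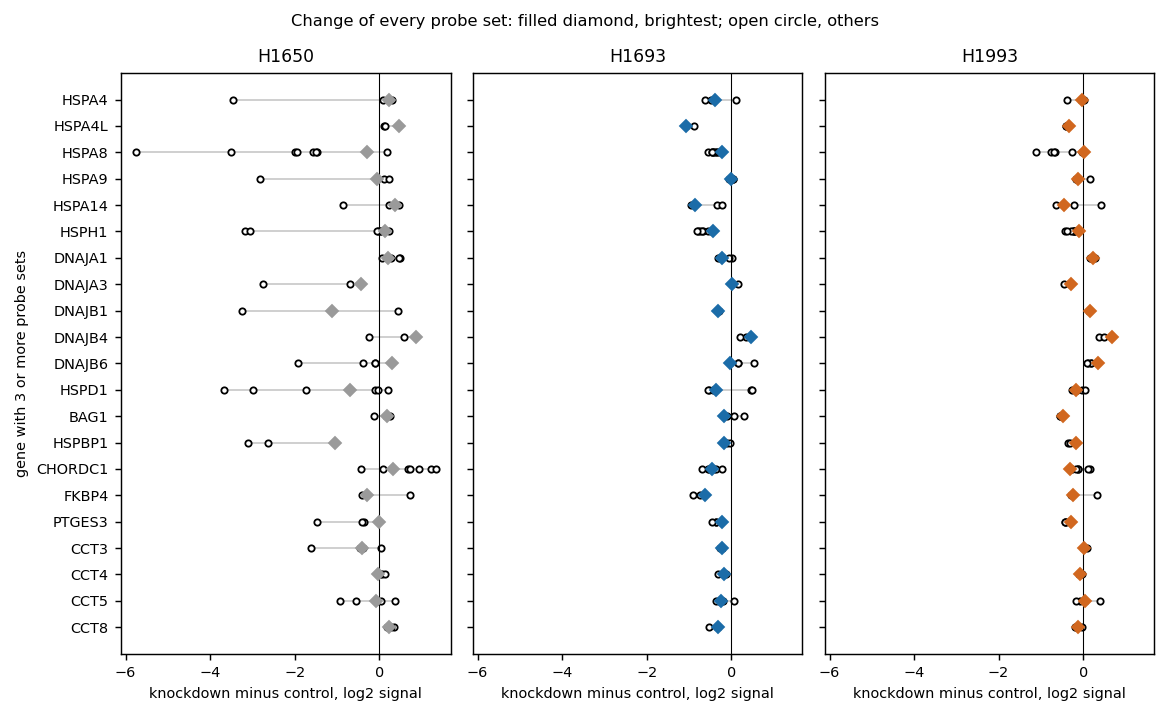
Knockdown minus control change (log2 signal, x axis) of every probe set of the 21 genes with 3 or more, one panel per line, with the brightest probe set as a filled diamond and the others as open circles. In H1693 and H1993 the probe sets of a gene lie close together, with a median span of 0.24 and 0.20 over the genes with 2 or more, whereas in H1650 those of HSPA8 reach from -5.75 to 0.19.

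The starting levels of several members differed between the lines, compared within each probe set. Between the control groups of H1993 and H1693, 25 of the 37 members differed (67.6%, against 63% of all genes), 11 higher and 14 lower in H1993 (30.1% and 32.9% of all genes). HSPB8 was 3.59 higher in H1993 (log2, SE 0.09, adjusted p = 3.56e-10), with group means of 10.06 and 6.48. It rose in H1693, the line where it started lowest. Its brightest probe set also rose in H1650, where it started highest, at a control mean of 11.30. BAG1 was 3.03 higher in H1993, with means of 12.56 and 9.53, and fell in H1993, the line where it started highest. DNAJC2 and HSPA14 were 1.57 and 1.51 higher in H1993. Their changes were lower in H1693, where they started lower (-0.73 and -0.86, against -0.18 and -0.46 in H1993). A link between starting level and change was not tested. DNAJB4, BAG2, HSPB1 and HSPE1 were lower in H1993, with differences of -1.88, -1.16, -1.13 and -1.09. HSF1 (0.14, adjusted p = 0.228), HSPA8 (-0.10), HSPH1 (-0.10) and CCT5 (0.00) did not pass.

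A companion list of 65 other chaperones and cofactors of the cytosol and mitochondria, of which 59 were tested, gave other counts. In H1693 13 fell and 10 rose (22% and 16.9%, against 15.9% and 17.1% of all genes; median -0.06), in H1993 17 fell and 9 rose (28.8% and 15.3%, against 14.5% and 18.9%), and in H1650 15 fell and 19 rose (25.4% and 32.2%, against 16.7% and 36.7%). In H1693 SUGT1, an HSP90 cofactor of kinetochore assembly, fell by 0.66 (SE 0.09, adjusted p = 0.000563). The histone chaperone DNAJC9 fell by 0.60 (SE 0.07, adjusted p = 0.000197), and the prefoldin subunit VBP1 by 0.59 (SE 0.11, adjusted p = 0.00285). The largest rises there were CCT6B, a testis form of the chaperonin subunit, at 0.80 (SE 0.10, adjusted p = 0.000207), DNAJA4 at 0.61 (SE 0.07, adjusted p = 0.000187) and CDC37L1 at 0.52 (SE 0.10, adjusted p = 0.00226). CCT6B and CDC37L1 also led the rises in H1993 after UNC45A, a myosin chaperone, which rose by 0.49 (SE 0.07, adjusted p = 0.000348); CCT6B was at 0.49 and CDC37L1 at 0.46. In H1993 DNAJC19, part of the mitochondrial import motor, fell by 0.82 (SE 0.06, adjusted p = 9.54e-06) and was at -0.06 (SE 0.06, adjusted p = 0.476) in H1693. FKBP5, the immunophilin that opposes FKBP4 on steroid receptors, fell by 0.73 (SE 0.10, adjusted p = 0.000317), and the mitochondrial disaggregase CLPB by 0.68 (SE 0.10, adjusted p = 0.000512). Of 7 prefoldin and prefoldin-related genes (prefoldin delivers actin and tubulin to CCT) 5 fell in H1993, 71.4% against 14.5% of all genes. In H1693 1 fell and 2 rose, 14.3% and 28.6% against 15.9% and 17.1%. In H1650 STUB1 (-2.77), DNAJC7 (-1.54) and the kinase cochaperone CDC37 (-1.45) had the largest falls, and HSPA12A (1.21), HSPB3 (1.02) and CCT6B (0.84) the largest rises, beside the 3′ minus 5′ difference of that line. The inducible HSP70 genes HSPA1A and HSPA1B are near-identical copies and most of their probe sets carry both symbols. The probe set named for HSPA1B alone changed by -0.57 (SE 0.11, adjusted p = 0.00238) in H1693 and by 0.11 (SE 0.11, adjusted p = 0.48) in H1993.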

How the data were processed

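Total RNA of 12 cultures was labelled with biotin and hybridised to Affymetrix arrays, per the labels. The authors deposited one log2 value for each probe set and array. It was computed by RMA, which removes background, equalises the distributions of the arrays and combines a set's probes; the submitters' processing notes name it and Affymetrix Expression Console. No version or genome build is stated there. The table holds 49395 probe sets; 44988 had one gene symbol in the platform annotation, of which 44961 matched a gene ID of RefSeq. The probe set brightest on average stood for its gene, and a gene entered the test if its signal was 5 (log2) or higher on 2 or more arrays. Of the 37 probe sets used for the members, 21 have names ending in x_at or s_at, which mark sets that can match several transcripts.

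With limma 3.58.1 (R 4.3.3), lmFit estimated a mean for each of the 6 groups over the 12 arrays and eBayes moderated the spread (residual degrees of freedom 6, prior 3.52), and adjusted p-values are Benjamini-Hochberg over the 16205 genes. Changes are knockdown minus control, SE comes from this fit, and the threshold was 0.05. The pipeline was tested on simulated data. The number of arrays limits the precision. Arrays of a group shared 0.0526% to 0.0992% of values exactly and correlated at 0.995 or more, so none was a duplicate.

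The members and lists were chosen with earlier results of these data known. Values on every array are given for HSF1, the 4 largest rises and falls in each line, members past the threshold with one sign in all lines, the 4 smallest F test p and the 2 largest differences between H1993 and H1693 in each direction; from the companion list, the 3 largest rises and falls per line are named. Other genes were named after their values were seen. The alternatives tried were other probe set rules, filters, normalisation, priors, subsets of arrays, a replicate block and leaving out each array.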

Additional observations from a re-analysis of the deposited data

Results flagged for a closer look

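The changes of 16 members differed between H1993 and H1693 by a test of the difference itself. The differences, H1993 minus H1693 in log2 signal, were 0.75 for HSPA4L, 0.59 for HSPE1, 0.54 for DNAJC2, 0.47 for DNAJB1, 0.43 for DNAJA1, 0.41 for BAG3 and 0.40 for HSPA14. They were 0.38 for FKBP4, DNAJB6 and HSPB1, 0.35 for HSPH1, 0.31 for TCP1 and HSP90AB1, 0.28 for CCT5, -0.31 for BAG1 and -1.41 for HSPB8. The difference of DNAJB6 depends on the probe set, and was 0.02 as a mean over its 5 probe sets. Over the 3 lines 30 members differed, with the H1650 arrays in the test.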

How the results depend on the processing

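The count of members lower in H1693 was 22 and ran from 13 to 25 with single arrays left out, and the count higher there was 2 throughout. Other settings gave 18 to 25 lower. Outside the quantile and block fits, calls over all genes were not counted under these settings. In H1993, 6 lower and 3 higher became 11 and 1 with the mean of all probe sets of a gene, 12 lower with a trended and robust prior, and 2 to 7 lower and 2 to 3 higher with single arrays left out. The difference between H1993 and H1693, 14 higher and 2 lower, became 6 to 14 and 1 to 2 with single arrays left out, and the 2 became 1 after quantile normalisation. In H1650, 14 lower and 9 higher stayed within 12 to 14 and 8 to 10 with single arrays left out. With the mean of all probe sets, DNAJB6 (-0.44) and HSPB8 (-0.94) turned from rises to falls there. PTGES3, at 0 on its brightest probe set, fell by this mean (-0.56), and FKBP4 went from -0.3 to 0.01 and no longer passed. The probe sets of these genes disagree in H1650. The F test count of 30 ran from 23 to 33, and the control counts of 11 and 14 from 11 to 14 and 11 to 16, over the settings that gave a value.

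The numbers of the replicates are shared between groups, and the titles do not say that they pair the arrays. The departures of same-numbered control and knockdown arrays from their group means were correlated across genes. The values were -0.11 in H1650, -0.18 in H1693 and 0.29 in H1993, with no common sign. With the replicate number as a block, 18 members were lower in H1693, 3 in H1993 and 13 in H1650. Over all genes 2343, 2078 and 2618 were then lower, in place of 2583, 2354 and 2702. The difference between H1993 and H1693 was higher for 8 members and lower for 1. Over all genes it was higher for 1643 and lower for 1212, in place of 2040 and 1537. With the numbers crossed in H1650 and H1693, chosen after seeing the data, the counts of members lower were 23, 8 and 14. Those of all genes were 2753, 2505 and 2758. Only 2 arrays per group and signals near the top of the scale limit small differences.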
